A study of Mus musculus with 2 samples.

Results

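IGHV14, also called the SM7 family, is a small group of mouse immunoglobulin heavy-chain variable (V) genes, and its 4 genes IGHV14-1, IGHV14-2, IGHV14-3 and IGHV14-4 were followed here in single B cells of Peyer's patches. A cell was a barcode with exactly 1 productive heavy-chain CDR3, and it belonged to the family when its V gene call began with IGHV14. By this rule 218 of 6241 cells carried an IGHV14 heavy chain, 114 of 3294 in the Cre+ library and 104 of 2947 in the Cre- library. All 218 had a full-length contig, a constant gene and a light chain, the receptor pair that defines a B cell. A T cell receptor contig lay in the same barcode in 2 Cre+ and 3 Cre- cells of the family.

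The Cre+ library pooled female mice of the genotype H2-Ab1 fl/fl; Villin:Cre+, in which Cre removes a chain of MHC class II from the gut epithelium. The Cre- library pooled female mice of the genotype H2-Ab1 fl/fl; Villin:Cre-, so the floxed allele was present in both groups. Per the labels, leukocytes (CD45+) were selected on magnetic beads, and the cells of 4 adult mice of a genotype went into 1 library for droplet-based receptor sequencing from the 5' end (10x Genomics). The series' design text gives Cre- for both groups where the sample labels differ, and H2-Ab1 was not measured, so the genotypes were taken from the sample labels unchecked. The Villin promoter directs Cre to the epithelium, and the B cells analysed were not themselves its target.

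The Cre+ and Cre- libraries held 355258 and 355985 unique molecular identifiers (UMIs, counts of transcript molecules). Each was partly made up of an expanded lineage, of 64 cells in Cre+ and 417 cells in Cre-, and neither used an IGHV14 gene. Shares over the other IGHV genes are therefore given without these lineages unless a sentence says otherwise. The libraries shared 10 barcodes, of which 0 held an IGHV14 cell. With 1 pooled library per genotype there was no replicate and no test, and all intervals are exact 95% (Clopper-Pearson) intervals that cover counting error only. A difference between shares is called apart when its interval, combined from the exact intervals of both shares, leaves out 0.

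An antibody heavy chain is assembled by joining a V, a D and a J gene, with bases trimmed and added at the joints. The joined stretch encodes CDR3, the most variable loop of the binding site, whose start is read from the V gene and whose end is read from the J gene. Naive B cells carry IgM and IgD, and activated cells can switch to IgG or IgA and mutate their V genes. Peyer's patches are follicles of the small intestine whose germinal centres are a main source of IgA B cells.

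The 4 genes fell into 2 pairs by the start of CDR3. The commonest first 9 nucleotides among unswitched (IgM or IgD) cells are printed here because they separate the pairs and are the start from which departures are counted below. Capitals mark the bases that differ between the pairs.
IGHV14-1: tgtActaCa
IGHV14-2: tgtGctaGa
IGHV14-3: tgtGctaGa
IGHV14-4: tgtActaCa
Counted from 1 at the cysteine codon that opens CDR3, the differences of IGHV14-4 from IGHV14-2 were G4A and G8C. The second codon thus reads threonine in IGHV14-1 and IGHV14-4, and alanine in IGHV14-2 and IGHV14-3. Threonine stood there in 28 of 31 Cre+ and 21 of 23 Cre- cells of IGHV14-4, and in 15 of 16 and 13 of 13 cells of IGHV14-1. Alanine stood there in 37 of 37 Cre+ and 29 of 31 Cre- cells of IGHV14-2, and in 26 of 30 and 34 of 37 cells of IGHV14-3. Among the other IGHV genes alanine was the usual residue, in 85.3% of Cre+ and 86.6% of Cre- cells.

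The third codon differed between the pairs as well. Arginine or lysine, the basic residues found there in 84.3% of Cre+ and 84.0% of Cre- cells of other IGHV genes, occurred in 48.2% and 45.2% of IGHV14 cells. The family value mixed the pairs. In IGHV14-4 a basic residue stood there in 3.23% of Cre+ and 8.70% of Cre- cells, and in IGHV14-1 in 12.5% and 0%. In IGHV14-2 it stood there in 83.8% and 61.3%, and in IGHV14-3 in 70% and 70.3%. The whole 9-nucleotide start was intact in 37 of 64 unswitched IGHV14-2 cells and 30 of 55 IGHV14-3 cells, against 22 of 50 IGHV14-4 cells and 7 of 27 IGHV14-1 cells. Agreement fell towards the last base. At position 6 it was between 85.2% and 93.8% in every gene, and at position 9 29.6% in IGHV14-1, 62.5% in IGHV14-2, 54.5% in IGHV14-3 and 50% in IGHV14-4.

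In the RefSeq annotation of GRCm38.p6 the genes lie on chromosome 12 within 244.915 kb. Ighv14-1 spans chr12:113931953-113932246, Ighv14-2 chr12:113994469-113994898, Ighv14-3 chr12:114059845-114060273 and Ighv14-4 chr12:114176438-114176867. Ordered by start among 120 annotated V segments they stand at places 21, 25, 27 and 32, interleaved with members of other families. Ighv14-1 has Ighv4-1 next to it, the gene of the large Cre- lineage (26 Cre+ and 436 Cre- cells), and Ighv14-4 has Ighv9-3 (103 and 76 cells). Ighv14-2 and Ighv14-3 flank Ighv11-2, which was found in 2 Cre+ cells and 1 Cre- cell.

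The family took the same share of both libraries within counting error. IGHV14 stood at 3.46% in Cre+ (114 of 3294 cells, 2.86 to 4.14) and at 3.53% in Cre- (104 of 2947 cells, 2.89 to 4.26), a difference of -0.07 percentage points (-1.01 to 0.865). Leaving out both largest lineages, the shares were 3.53% in Cre+ and 4.11% in Cre-, and the interval of their difference was -1.63 to 0.434. By cell number IGHV14 was the eighth of 15 IGHV families, level with IGHV8 at 218 cells.

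Among the members IGHV14-1 was the least used in both libraries. From high to low the order was IGHV14-2, IGHV14-4, IGHV14-3 and IGHV14-1 in Cre+, and IGHV14-3, IGHV14-2, IGHV14-4 and IGHV14-1 in Cre-, and neighbours in each order had overlapping intervals. IGHV14-1 was found in 16 Cre+ and 13 Cre- cells, or 0.486% and 0.441%. IGHV14-4 was found in 31 and 23 cells (0.941% and 0.780%), and IGHV14-2 in 37 and 31 cells (1.12% and 1.05%). IGHV14-3 was found in 30 Cre+ cells (0.911%), against 37 cells (1.26%) in Cre-. Over all cells it was the only member with the lower share in Cre+, but without both largest lineages IGHV14-1 (0.495% in Cre+ and 0.514% in Cre-) and IGHV14-2 (1.15% and 1.23%) were lower in Cre+ too. The interval of the Cre+ minus Cre- difference included 0 for each of the 4 genes in both counts. None of the 4 passed the rule of size used between libraries, which asks for 20 or more cells, a ratio of at least 1.5 in either direction and separate intervals; 4 of 64 IGHV genes did, which is 6.25%. Leaving out both largest lineages, again none of the 4 passed, and 1 of 64 genes did, which is 1.56%.

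**Figure D1:**
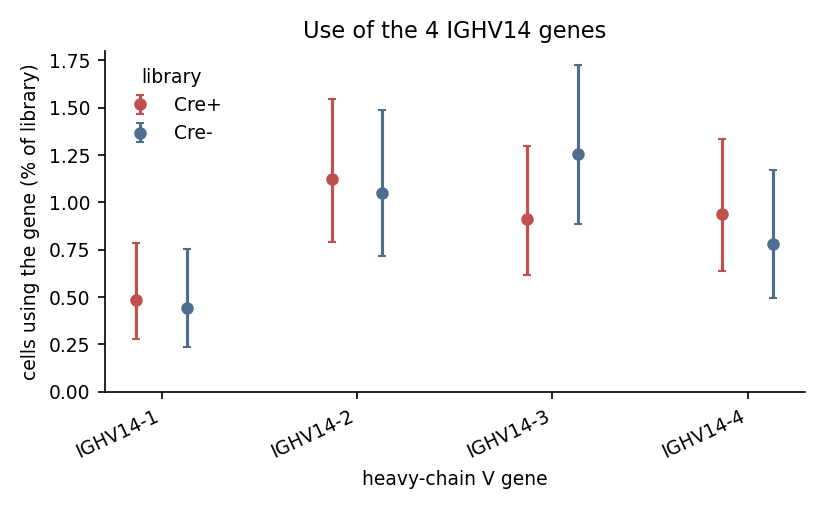
Share of each library's cells that used each IGHV14 gene (vertical axis, percent), Cre+ in red on the left and Cre- in blue on the right; points are shares and bars exact 95% intervals for counting error. IGHV14-1 lies lowest in both libraries, at 0.486% and 0.441%, and the intervals of Cre+ and Cre- overlap for every gene.

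The family's distribution over library and class was most like that of IGHV1-78, IGHV5-16 and IGHV1-81. Likeness was measured as the total variation distance over 8 bins (2 libraries by IgM, IgD, IgA and IgG), the share of cells that would have to change bin for 2 genes to match. It was 4.74% for IGHV1-78, 5.18% for IGHV5-16 and 6.33% for IGHV1-81, against a median of 11.0% over 43 genes with 50 or more cells. The nearest gene to IGHV14-2 was IGHV1-15 (5.84%), to IGHV14-3 IGHV1-22 (9.91%) and to IGHV14-4 IGHV1-18 (11.0%). These genes come from other families. IGHV14-1, with 29 cells, was under the limit of 50 and was not compared.

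Most IGHV14 cells were unswitched. IgM was the constant gene in 62.3% of Cre+ and 58.7% of Cre- cells of the family, and IgD in 30.7% and 27.9%. IgD made up 33.0% of the unswitched IGHV14 cells in Cre+ and 32.2% in Cre-, close to the 34.0% and 31.9% of other IGHV genes. Switched cells numbered 8 of 114 in Cre+ (7.02%, 3.08 to 13.4) and 14 of 104 in Cre- (13.5%, 7.56 to 21.6), with overlapping intervals. Of all cells of other IGHV genes, 11.3% in Cre+ and 23.2% in Cre- were switched, and 9.77% and 10.0% once the largest lineages were left out. The family's switched share was thus below that of other genes in Cre- by 9.76 points, and above it by 3.45 points (-2.59 to 11.6) without the lineage.

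IgA cells of the family mostly used IGHV14-3, but in Cre- most of them were 1 clone. IgA was the class of 5 of 30 IGHV14-3 cells in Cre+ (16.7%, 5.64 to 34.7) and 6 of 37 in Cre- (16.2%, 6.19 to 32.0). The other 3 genes together held 1 IgA cell, an IGHV14-2 cell of Cre-. The IgA share of IGHV14-3 exceeded that of the other 3 genes by 16.7 points in Cre+ (4.8 to 34.7) and by 14.7 points in Cre- (2.8 to 30.6). IGHV14-3 was singled out because it held most IgA cells of the family, so these gaps partly follow from that choice. The IgA share of IGHV14-3 exceeded that of other IGHV genes without the largest lineages by 11.9 points (0.806 to 29.9) and 10.7 points (0.600 to 26.5). The same choice bears on these gaps. The 5 Cre+ cells were 5 separate lineages and the 6 Cre- cells were 3, because 4 of them formed the clone described below. Counting each lineage once gave 3 of 34 in Cre- (8.82%, 1.86 to 23.7), against 1.52% in the other 3 genes and 5.03% in other IGHV genes. Both Cre- differences then included 0, at 7.31 points (-2.32 to 22.2) and 3.798 points (-3.23 to 18.7). Without the clone 2 of 33 Cre- cells were IgA (6.06%), against 5.54% of other IGHV genes, a difference of 0.517 points (-4.89 to 14.7). In Cre+ both differences were apart with lineages counted once, at 16.7 points (4.83 to 34.7) and 12.7 points (1.63 to 30.8). There the family's own counts could not change, because each of its cells was its own lineage.

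**Figure D2:**
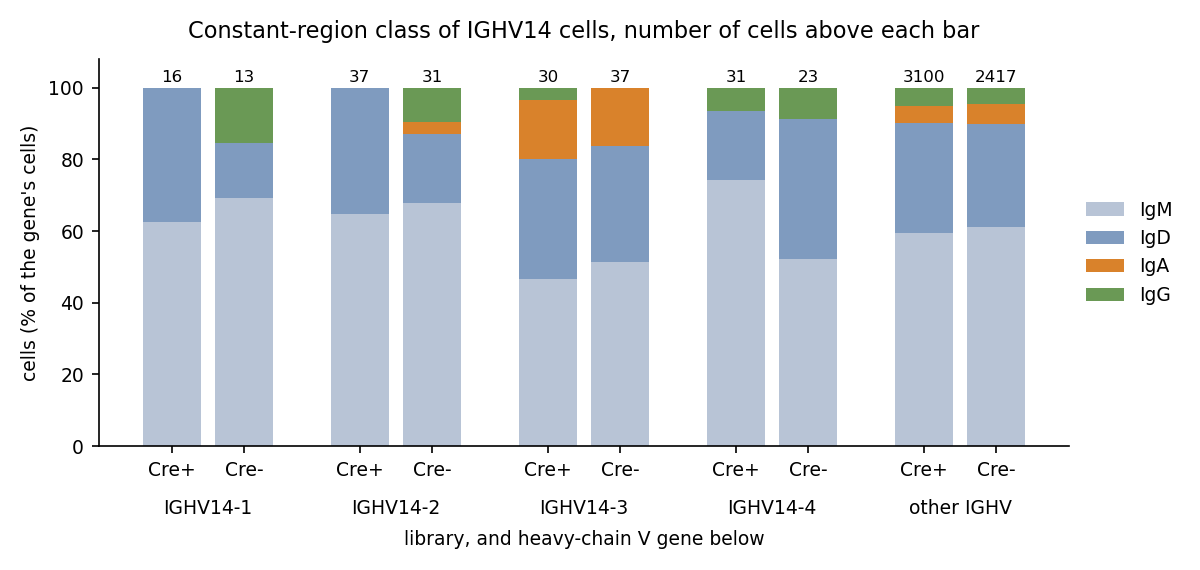
Constant-region class of the cells of each IGHV14 gene and of other IGHV genes without the largest lineage of each library (vertical axis, percent of cells with a class), Cre+ left of Cre- in each pair, with the number of cells above each bar. The IgA band of IGHV14-3 stands at 16.7% in Cre+ and 16.2% in Cre-, where 4 of its 6 cells are 1 clone, and elsewhere in the family 1 cell was IgA.

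The CDR3s of the IGHV14-3 IgA cells outside that clone are printed because 6 of these 7 departed from the commonest start or end. Capitals mark bases that differ from the gene's 9-nucleotide start or from the commonest 9 nucleotides of the J gene before the last codon.
IGHV14-3 IGHJ3, Cre+, IGKV6-23: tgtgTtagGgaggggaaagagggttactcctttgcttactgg
IGHV14-3 IGHJ2, Cre+, IGKV14-111: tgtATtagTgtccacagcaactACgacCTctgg
IGHV14-3 IGHJ2, Cre+, IGKV14-111: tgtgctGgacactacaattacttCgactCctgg
IGHV14-3 IGHJ2, Cre+, IGKV14-111: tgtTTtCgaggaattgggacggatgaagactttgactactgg
IGHV14-3 IGHJ4, Cre+, IGKV6-23: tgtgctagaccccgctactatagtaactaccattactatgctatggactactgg
IGHV14-3 IGHJ3, Cre-, IGKV6-13: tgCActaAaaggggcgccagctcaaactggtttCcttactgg
IGHV14-3 IGHJ2, Cre-, IGKV3-10: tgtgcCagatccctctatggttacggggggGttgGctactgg
The unmarked sequence came from a cell with 397 heavy-chain UMIs, the twenty-first highest of the Cre+ library, and the IGKV6-13 cell had 720, the seventeenth highest of Cre-. The other 5 had between 5 and 38 heavy-chain UMIs.

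In Cre+, switched IGHV14 cells departed from the commonest start more often than unswitched cells, and in Cre- the interval of this difference included 0. In the first 6 nucleotides, which most unswitched cells carried intact, a mismatch was found in 6 of 8 switched Cre+ cells, against 7 of 106 unswitched cells (6.60%), a difference of 68.4 points (27.8 to 90.6). In Cre- it was found in 4 of 14 switched cells, against 13 of 90 unswitched cells (14.4%), a difference of 14.1 points (-7.97 to 44.4). Over 9 nucleotides the difference was 41.3 points in Cre+ (-0.0922 to 56.9) and 14.8 points in Cre- (-16.6 to 37.7), and neither was apart. At the J end a mismatch was found in 3 of 8 switched Cre+ cells and 7 of 14 switched Cre- cells, against 26 of 106 (24.5%) and 13 of 90 (14.4%) unswitched cells, apart in Cre- only. Other IGHV genes had such a J mismatch in 36.3% of switched Cre+ and 38.4% of switched Cre- cells, against 15.1% and 15.3% of unswitched cells. These counts do not separate mutation from the trimming of V and J at the joint, and which of them gave a mismatch was not tested.

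IgG was found in 3 Cre+ and 7 Cre- cells of the family and was spread over all 4 genes. IgG2b was carried by 1 IGHV14-3 and 1 IGHV14-4 cell in Cre+, and by 2 IGHV14-1, 3 IGHV14-2 and 1 IGHV14-4 cells in Cre-. IgG1 was carried by 1 IGHV14-4 cell in each library. IGHV14-2 had 0 switched cells of 37 in Cre+ (3 cells would make 8.11%, and the exact interval reaches 9.49%), against 4 of 31 in Cre-.

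Clonal expansion was rare in the family. Cells were put in 1 lineage when they came from the same library, shared V gene, J gene and CDR3 length, and matched at 85% or more of the CDR3 nucleotides. In Cre+ all 114 IGHV14 cells were their own lineage, so 0 of 114 lay in a lineage of 2 or more. There 3 cells would make 2.63%, and the exact interval reaches 3.18%. In Cre- 6 of 104 cells (5.77%, 2.15 to 12.1) did, in 2 lineages. Of the other IGHV genes, 8.66% in Cre+ and 6.31% in Cre- were in such lineages after the largest was left out. The family was lower than these by 8.66 points in Cre+ (5.34 to 9.71), whereas in Cre- the interval of the difference included 0. The rule links cells only within a V gene, so this share can rise with the cells per gene, which were not matched.

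The larger clone joined IGHV14-3 to IGHJ4 and paired with IGKV17-127, and all 4 of its cells were IgA. Its members are printed because each cell had its own CDR3, and capitals mark the 7 positions at which any of them differ.
Cell with 20 heavy-chain UMIs: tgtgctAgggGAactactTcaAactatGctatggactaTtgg
Cell with 6 heavy-chain UMIs: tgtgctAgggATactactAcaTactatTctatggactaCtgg
Cell with 23 heavy-chain UMIs: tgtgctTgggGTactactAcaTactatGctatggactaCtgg
Cell with 32 heavy-chain UMIs: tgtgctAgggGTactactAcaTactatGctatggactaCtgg
All 4 cells had the same light-chain CDR3, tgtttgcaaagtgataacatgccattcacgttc. This light-chain CDR3 also occurred in 9 of 124 cells that paired IGKV17-127 with other IGHV genes. Sharing it does not by itself mark a clone. The 4 cells count as 1 clone under the lineage rule, and the lowest identity between their heavy-chain CDR3s was 85.7%. Their D gene calls were IGHD2-3 and IGHD2-8. The authors' clonotypes, which require identical CDR3s, list these cells as 4 separate clonotypes.

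The second clone joined IGHV14-1 to IGHJ3 and IGKV8-21 in 2 IgG2b cells with 1 CDR3, which carried no departure from the start or the J end.
IGHV14-1 IGHJ3, Cre-, both cells: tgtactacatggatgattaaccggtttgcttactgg
The cells differed in level, with 1581 and 4 heavy-chain UMIs, and the first was the twelfth highest of its library. No IGHV14 cell had a partner in the other library under the lineage rule. That was 0 of 114 in Cre+ (up to 3.18%) and 0 of 104 in Cre- (up to 3.48%), against 3.53% and 4.41% of cells of other IGHV genes. The libraries came from different mice, so such partners are cells that the rule links without common descent. A partner must share the V gene, so this share can rise with the cells per gene, which were not matched.

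IGHJ3 was joined to IGHV14-4 more often than to other V genes. It was used by 13 of 31 IGHV14-4 cells in Cre+ (41.9%, 24.5 to 60.9) and 13 of 23 in Cre- (56.5%, 34.5 to 76.8). Other IGHV genes joined IGHJ3 in 21.9% of Cre+ and 20.6% of Cre- cells without the largest lineages, lower by 20.1 points (2.63 to 39.1) and 35.95 points (13.9 to 56.3). This contrast was chosen after its values were seen, so these gaps partly follow from that choice. All 26 IGHV14-4 cells with IGHJ3 were separate lineages. Over both libraries the IGHJ3 share of IGHV14-4, 48.1%, ranked second of 64 IGHV genes with 20 or more cells, with the largest lineages included. The first was IGHV4-1, the gene of the large Cre- lineage, at 92.6% (23.1% in Cre+ and 96.8% in Cre-).

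The other members showed no such excess in both libraries. Its share was 32.4% in Cre+ and 22.6% in Cre- for IGHV14-2, 16.7% and 32.4% for IGHV14-3, and 18.8% and 23.1% for IGHV14-1. Over the family IGHJ2 led in Cre+ with 35.1%, before IGHJ3 with 28.9%, IGHJ4 with 21.1% and IGHJ1 with 14.9%. In Cre- IGHJ2 and IGHJ3 were level at 33.7%, with IGHJ4 at 21.2% and IGHJ1 at 11.5%. IGHJ4, the J gene that encodes the longest CDR3 end, made up 26.7% in Cre+ and 37.8% in Cre- for IGHV14-3, and was found in 4 of 16 and 0 of 13 IGHV14-1 cells.

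Among D genes IGHD1-1 was the most frequent in the family, in 41 of 96 Cre+ cells (42.7%) and 32 of 95 Cre- cells (33.7%) with a D call. IGHD2-3 followed, with 19 Cre+ cells (19.8%) and 15 Cre- cells (15.8%); its share exceeded that of other IGHV genes (9.98%) in Cre+ by 9.82 points (2.29 to 19.3), and in Cre- the interval included 0. IGHV14-3 held 8 of these cells in each library. Of the D genes with 5 or more family cells, IGHD2-4 was the only one whose difference between libraries was apart. It had 5 Cre+ cells (5.21%) and 15 Cre- cells (15.8%), a difference of -10.6 points (-20.2 to -1.24, not adjusted for the number of D genes). Over all cells of other IGHV genes with a D call its share was 12.4% in Cre+ and 11.7% in Cre-. The D genes IGHD2-6 (8 and 6 cells), IGHD2-7 (5 and 7), IGHD2-8 (5 and 5), IGHD3-2 (1 and 6) and IGHD4-1 (8 and 6) made up most of the rest. In IGHV14-4 IGHD1-1 was called in 59.1% of Cre+ and 52.6% of Cre- cells with a D call, against 36.2% and 35.5% of other IGHV genes without the largest lineages, apart in Cre+ only. A D gene was called at all in 22 of 31 IGHV14-4 cells in Cre+ (71.0%) and 19 of 23 in Cre- (82.6%, 61.2 to 95.05), against 91.7% and 91.2% of other IGHV genes, again apart in Cre+ only.

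CDR3s of 10 or fewer residues were more common in the family than elsewhere. They made up 24 of 114 Cre+ cells (21.1%) and 18 of 104 Cre- cells (17.3%), against 9.02% and 8.62% of other IGHV cells without the largest lineages. The differences were 12.03 points in Cre+ (4.88 to 20.7) and 8.69 points in Cre- (1.87 to 17.4). At the other end, CDR3s of 16 or more residues made up 20.2% of Cre+ and 16.3% of Cre- IGHV14 cells, against 29.1% and 30.5%. The medians did not show this, being 14 residues in both libraries for IGHV14 (with quartiles at 11 and 15 in Cre+, and at 11.75 and 15 in Cre-) and 14 in both for the other genes. The mean was 13.2 in each library (SD over cells 3.02 in Cre+ and 2.58 in Cre-), and lengths ran from 6 to 21.

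**Figure D3:**
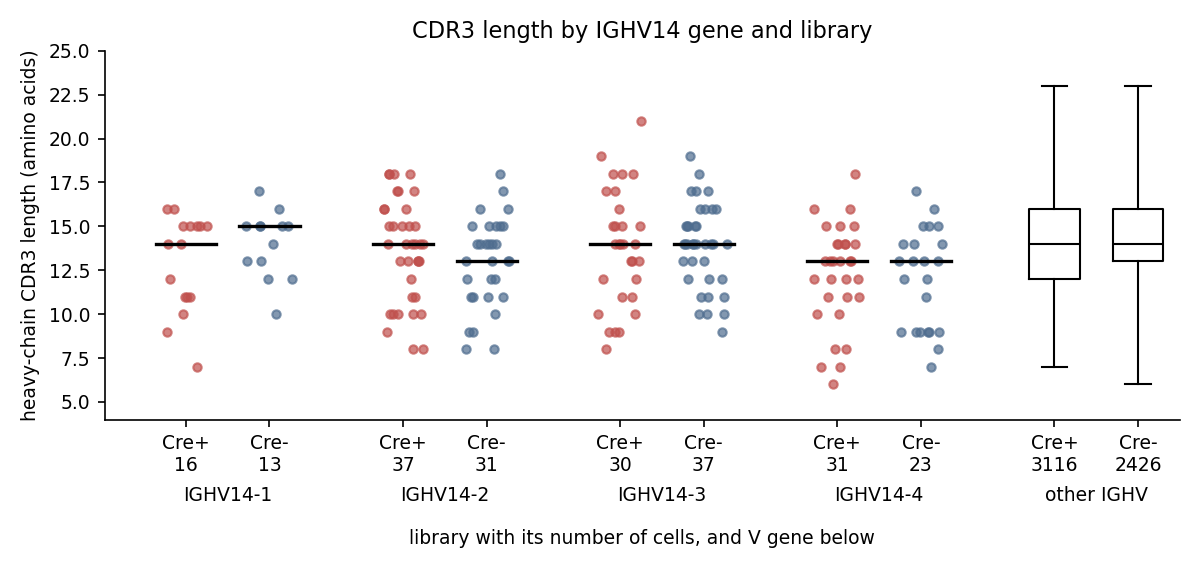
Heavy-chain CDR3 length in amino acids (vertical axis) for each IGHV14 cell, by gene and library, with the median as a black line and the number of cells under each column. Boxes for other IGHV genes without the largest lineages show the median, the interquartile range and the full range. IGHV14-4 has the median of 13 in both libraries and a group of cells at 9 residues in Cre-.

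Short loops had their highest share in IGHV14-4, although its intervals overlapped those of the other members. Its CDR3 had 10 or fewer residues in 7 of 31 Cre+ cells (22.6%) and 8 of 23 Cre- cells (34.8%). Its mean length, 12.1 residues over both libraries, ranked 63 of 64 IGHV genes counted from the longest, with the largest lineages included. The shortest was IGHV4-1, the gene of the large Cre- lineage, at 11.3 residues. The shares in the other members were 21.6% and 16.1% in IGHV14-2, 20% and 10.8% in IGHV14-3, and 18.8% and 7.69% in IGHV14-1. The joints of the short IGHV14-4 and IGHJ3 cells are printed to show the sequence that lies between V and J. Capitals mark the bases between the longest match to the V start and the longest match to the commonest 12 nucleotides of IGHJ3 before the last codon.
Cre+, IgM, IGKV1-135: tgtactacTGTGGTttactgg
Cre+, IgM, IGKV16-104: tgtactacaCggtttgcttactgg
Cre+, IgG, IGKV2-137: tgtaTCGCTTTTGCTTATtgg
Cre-, IgD, IGKV1-135: tgtactacaGACTACGGTACctgg
Cre-, IgM, IGKV4-59: tgtactacaGGCCAgtttgcttactgg
Cre-, IgM, IGKV9-120: tgtactacCCTACGGAGAgcttactgg
Cre-, IgM, IGKV2-137: tgtactCTATTAGggtttgcttactgg
Cre-, IgM, IGKV1-135: tgtactTCCACCCAGGGGgcttactgg
Cre-, IgD, IGKV1-110: tgtTCCTCCAAGCCCtttgcttactgg
The unmatched stretch ran from 1 to 14 nucleotides with a median of 10, and it was 10 or longer in 5 of the 9 cells. In the longest, in the IgG cell, 1 J base was changed, the one just before the last codon. The J match was counted back from that codon, so unchanged J bases before the change are printed as capitals too. Its 14 nucleotides therefore overstate the sequence between V and J, and this cell is among the 5. No 2 of the 9 sequences were the same, and 5 of the 6 Cre- cells had a CDR3 of 9 residues.

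**Figure D4:**
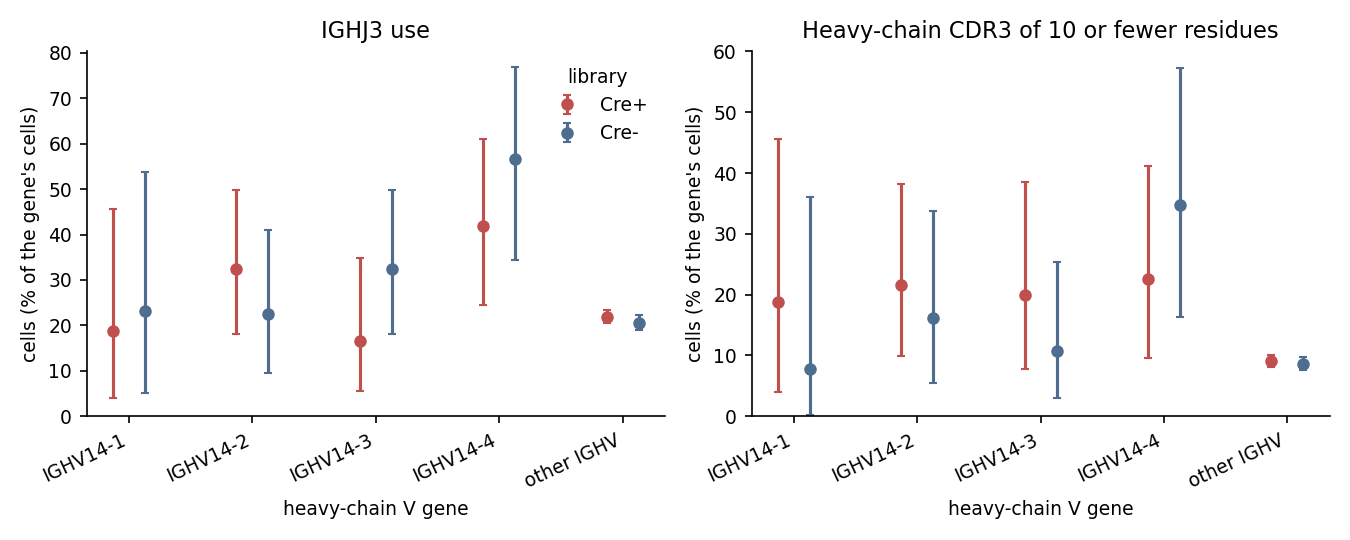
Share of cells that used IGHJ3 (left) and share with a heavy-chain CDR3 of 10 or fewer residues (right), in percent, for each IGHV14 gene and for other IGHV genes without the largest lineages, Cre+ in red and Cre- in blue. Bars are exact 95% intervals. IGHV14-4 has the highest value of IGHJ3 use, 41.9% in Cre+ and 56.5% in Cre-, and of short CDR3s, 22.6% and 34.8%.

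Light-chain use was broad, with 61 light V genes in 121 pairs with the 4 heavy V genes. Only 6 pairs had 5 or more cells. Lambda chains, which form a small part of the mouse light-chain repertoire, were found in 7 of 114 Cre+ cells (6.14%) and 1 of 104 Cre- cells (0.962%), against 4.60% and 5.06% of other IGHV genes, and neither difference was apart. A second light chain was found in the barcode of 17 Cre+ cells (14.9%) and 6 Cre- cells (5.77%), a difference of 9.14 points (0.410 to 17.8). Among other IGHV genes it was found in 8.86% and 8.41% of cells, and in each library the interval of the family's difference from them included 0.

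IGKV1-135 was the commonest light V gene of the family. It was used by 10 Cre+ cells (8.77%) and 9 Cre- cells (8.65%), against 3.31% and 3.597% of cells of other IGHV genes, and both differences were apart. IGKV1-135 was singled out as the commonest of 61 light V genes, so these gaps partly follow from that choice. The intervals were not adjusted for the number of light V genes. IGKV1-135 paired with IGHV14-4 in 10 cells, 6 of 31 in Cre+ (19.4%, 7.45 to 37.5) and 4 of 23 in Cre- (17.4%, 4.95 to 38.8). All 10 were unswitched and separate lineages, 9 used the light J gene IGKJ1 and 5 used IGHJ3. IGHV14-2 paired with it in 6 cells, IGHV14-1 in 3 and IGHV14-3 in 0 of 67.

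IGHV14-3 paired most with IGKV14-111 and IGKV17-127. IGKV14-111 was found in 7 of its 30 Cre+ cells (23.3%, 9.93 to 42.3) and 2 of its 37 Cre- cells (5.41%, 0.661 to 18.2), against 2.40% and 2.72% of cells of other IGHV genes, apart in Cre+ only. These 9 cells were 9 lineages with CDR3s of 11 to 18 residues, 8 of them used IGHJ2, and 3 of the Cre+ cells were the IgA cells printed above. IGKV14-111 was singled out as the leading one of 36 light V genes of IGHV14-3, so its gap partly follows from that choice. Its interval was not adjusted for their number. IGKV17-127 was found in 0 of 30 IGHV14-3 cells of Cre+ (3 cells would make 10.0%, and the exact interval reaches 11.6%). It was found in 7 of 37 Cre- cells (18.9%, 7.96 to 35.2), 4 of them the IgA clone. The 3 Cre+ cells of the family that carried it used IGHV14-2. Counted as lineages it was in 4 of 34 in Cre- (11.8%), and the intervals of the libraries overlapped. IGKV3-4 followed with 3 Cre+ and 2 Cre- cells.

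The leading partners of the remaining genes were each in 6 cells or fewer. For IGHV14-2 they were IGKV1-117 (4 Cre+ and 2 Cre- cells), IGKV1-135 (2 and 4) and IGKV1-110 (3 and 1). For IGHV14-1 they were IGKV1-135 (2 and 1), IGKV8-21 (0 and 3, of which 2 were the IgG2b clone) and IGKV1-117 (1 and 1). After IGKV1-135, IGHV14-4 had IGKV2-109 (3 and 1) and IGKV1-110 (0 and 3).

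IGHV14 heavy chains were detected with fewer molecules than other heavy chains, while their light chains were not. In unswitched cells the median was 6 heavy-chain UMIs in both libraries (interquartile range 4 to 8), against 8 in Cre+ and 9 in Cre- over all unswitched cells of other IGHV genes. The geometric mean was 5.54 in Cre+ and 5.12 in Cre-, against 7.94 and 8.35. Light-chain UMIs of the same cells had geometric means of 26.6 in Cre+ and 30.5 in Cre-, against 26.8 and 29.9. A heavy chain with 5 or fewer UMIs was seen in 45.3% of unswitched IGHV14 cells in Cre+ and 44.4% in Cre-, against 27.1% and 24.4%, higher by 18.2 points (8.35 to 28.3) and 20.03 points (9.39 to 31.0).

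Each of the 4 genes was on the low side. Ordered from the lowest geometric mean among 61 IGHV genes with 20 or more unswitched cells, IGHV14-2 stood at place 4 in Cre+ and 9 in Cre-, and IGHV14-1 at place 10 in both. IGHV14-3 stood at places 14 and 2, and IGHV14-4 at 13 and 7. Their light chains were spread over the order, from place 13 to 56 in Cre+ and from 7 to 46 in Cre-. Fewer transcripts per cell and poorer capture of these transcripts cannot be told apart in these counts.

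**Figure D5:**
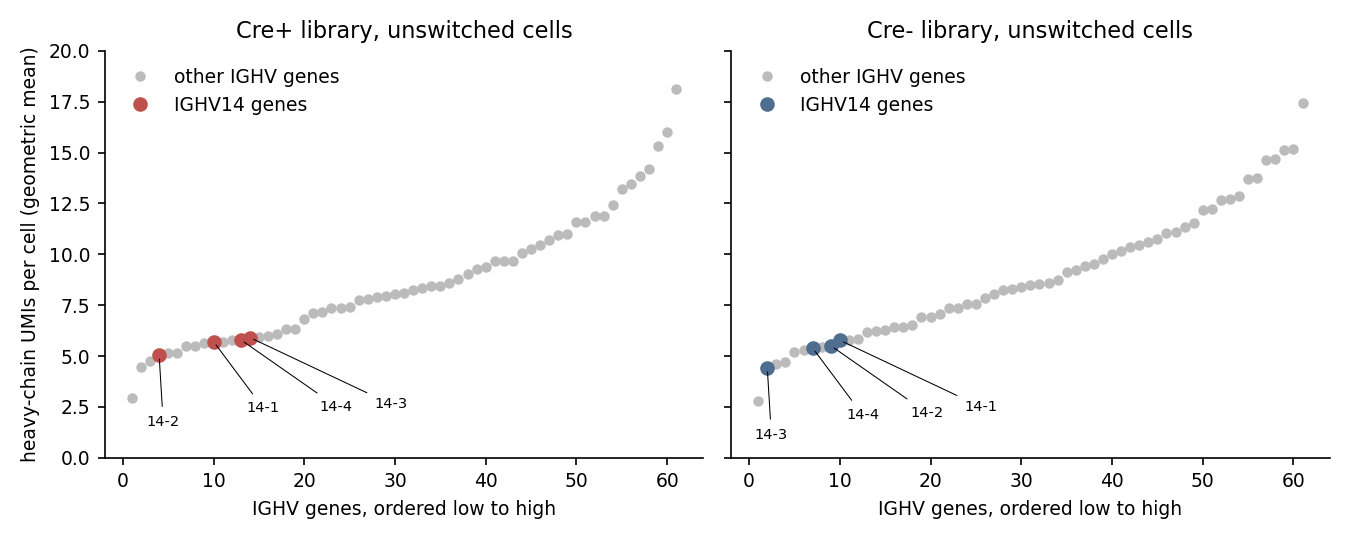
Geometric mean of heavy-chain UMIs per unswitched cell (vertical axis) for each of 61 IGHV genes, ordered from low to high within the Cre+ library (left) and the Cre- library (right), with the 4 IGHV14 genes in colour. The IGHV14 genes lie between 5.06 and 5.91 UMIs in Cre+ and between 4.43 and 5.78 in Cre-, within the first 14 places.

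The family was also present among heavy-chain contigs that were not called productive. These had a V gene and were either marked as not productive or had no verdict. An IGHV14 gene was used by 4 of 365 in Cre+ (1.10%) and 10 of 296 in Cre- (3.38%, 1.63 to 6.13). Of these IGHV14 contigs, 1 in Cre+ and 8 in Cre- had no verdict. Counting only contigs marked as not productive, without those that have no verdict, the shares were 3 of 231 in Cre+ (1.30%, 0.269 to 3.75) and 2 of 159 in Cre- (1.26%, 0.153 to 4.47). The Cre- share thus changed with the contigs counted. With all such contigs the Cre+ interval (0.299 to 2.78) lay below the 3.46% found among productive chains, and with the stricter count it covered that share.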

How the data were processed

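Per the submitters' processing notes, reads were processed with Cell Ranger on the GRCm38 build; its version was not given in the sources used here. Per the file headers, the contig tables list each assembled receptor contig with its barcode, V, D, J and constant gene, CDR3, and the count of reads and UMIs; the clonotype tables give the count of barcodes per clonotype. These counts were used as deposited, without normalization.

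Heavy chains were productive IGH contigs, and barcodes with 2 or more (145 in Cre+, 83 in Cre-) were left out; no doublet caller was run. The light chain was the productive one with the most UMIs. Unswitched means IgM or IgD. Lineages used single linkage. Consensus CDR3 starts and ends came from unswitched cells of both libraries. A count of 0 is given with the share that 3 cells would make. Named were all members and their constant, IGHJ and IGHD genes (5 or more cells). Also named were the 3 leading light V genes of each, pairs of 5 or more cells and lineages of 3 or more. The 2-cell lineage, the short joints and low UMI counts were chosen after their values were seen. So were the contrasts of the IgA share of IGHV14-3 and of the IGHJ3 share of IGHV14-4. The members and lists were chosen with earlier results of these data known. The counting and lineage steps were tested on simulated data with Python 3.11.15, pandas 2.3.3 and scipy 1.17.1. V gene and promoter sequences of the 4 genes were not used here.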

Additional observations from a re-analysis of the deposited data

Results flagged for a closer look

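IGHV14 heavy chains also appeared in barcodes outside the comparisons, those with 2 or more heavy chains. They numbered 9 of 300 heavy chains in Cre+ (3%, 1.38 to 5.62) and 4 of 167 in Cre- (2.40%, 0.656 to 6.02), more than the 3 counts set beside a value of 0. In Cre+ they were 1 IGHV14-1, 3 IGHV14-2, 4 IGHV14-3 and 1 IGHV14-4 chain, and in Cre- 1 IGHV14-2, 2 IGHV14-3 and 1 IGHV14-4 chain. Both shares lie within counting error of the family's share of cells with a single heavy chain.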

How the results depend on the processing

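Of 118 alternative values for the main results, 104 stayed within the interval of the value reported and 14 moved. Some of the values that stayed could not have moved. Neither largest lineage used an IGHV14 gene, so leaving both out cannot change a share within the family. In Cre+ each family cell was its own lineage, so counting each lineage once cannot change such a share there. The count of 104 therefore overstates how stable the results were. Of 186 further values for single genes and differences, 171 stayed, 7 moved, 2 reversed, 2 came apart from 0 and 4 lost that. Among switched cells alone the family's share was 2.19% in Cre+ and 2.08% in Cre-, and without the largest lineages 2.57% and 5.47%. With identical CDR3s or the authors' clonotypes 1.92% of Cre- IGHV14 cells lay in lineages, since the 4-cell clone is split. With 6 nucleotides of J, mismatches in unswitched cells were at 13.2% in Cre+ and 5.56% in Cre-, and with 12 nucleotides at 50% and 37.8% (78.6% in switched Cre- cells). With the first 6 nucleotides of V, mismatches were at 6.60% in Cre+ and 14.4% in Cre- unswitched cells and at 28.6% in switched Cre- cells. Without the largest lineages 1 IGHV gene passed the rule of size, not a member. Among contigs marked not productive, leaving out those with no verdict, the Cre- share was 1.26% (2 of 159), an alternative chosen after seeing the data. Without the largest lineages the switched share of IGHV14 exceeded that of other genes in Cre- by 3.45 points, and with each lineage counted once by 0.878 points, the reverse of the difference over all cells. The IGHJ3 excess of the family in Cre- came apart from 0 under the same settings. Without the 4-cell clone or with lineages counted once, both chosen after seeing the data, the IgA excess of IGHV14-3 in Cre- over the other 3 genes and over other IGHV genes no longer left out 0. No paired analysis was possible because each genotype had 1 library.

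Depth limits these results. Genes rest on 13 to 37 cells per library, each library pools 4 mice, and cells of a mouse or lineage are not independent, so the true error is wider than the intervals. Of the 50 shares set against other IGHV genes without the largest lineages in Cre+ and 51 in Cre-, 10 and 7 were apart for the family; the intervals were not adjusted for this number. Leaving out 1 library as a replicate was not possible.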
